A study of Mus musculus with 4 samples.

Results

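The genes described here are the microRNA genes of the mouse that lie outside the imprinted Dlk1-Dio3 interval of chromosome 12, as far as the array measured each with a probe set of its own. They were chosen by name and position: the platform annotation gave the probe set exactly 1 symbol, that symbol began with Mir and a digit or with Mirlet, and the gene did not lie between Dlk1 and Dio3. This gave 260 of the 19938 genes tested, after 40 microRNA genes inside the interval were left out. Of the 260, 256 are hairpin genes and 4 (Mir100hg, Mir99ahg, Mir17hg and Mir670hg) are long host transcripts that carry a microRNA name. Another 61 probe sets list a microRNA beside other symbols, for example Mir124a-1 with its host or Mir29c with a long transcript, and were not used. A gene with several probe sets was represented by the brightest one, which concerned 2 of the 260, Mir99ahg and Mir713.

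The RNA came from whole brains of C57BL/6J fetuses, an inbred strain, of unknown sex at embryonic day 16. In the ethanol group the pregnant females had been injected with ethanol in saline at 2.5 g per kg on gestational days 14 and 16. In the control group they received an equal volume of saline on the same days. Each array held the pooled RNA of 3 mice, with 2 ethanol and 2 control pools (12 mice in all). No source used here gives the litters behind a pool, and a p-value therefore covers no more than the variation from pool to pool. The comparison asks which microRNA genes differ in fetal brain after this acute exposure. With 2 against 2 pools an exact permutation test of a single gene, two-sided, cannot go below p = 0.333, so the tests given are those of the fit across all genes.

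MicroRNA genes are copied by RNA polymerase II into long primary transcripts, often several hairpins at a time or as part of an intron of a host gene. The enzymes Drosha and Dicer cut each hairpin down to a short mature RNA, which an Argonaute protein holds and uses to find messages that pair with its seed, the bases near its 5′ end. In the developing brain such RNAs help progenitors leave the cell cycle and neurons mature, with let-7, miR-9, miR-124 and miR-125 among the best known. The array labelled single-stranded cDNA made from column-cleaned total RNA, a preparation that favours RNA much longer than a mature microRNA. Whether a probe set here read primary transcript, hairpin or the intron of a host was not tested, and the values below are not levels of mature microRNAs.

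The sequences shown first are mature microRNAs of the genes on which the results turn, from RefSeq on GRCm38.p6. Capitals mark the seed, bases 2 to 8 from the 5′ end. Of the 260 genes, 231 had an entry in that table. The first set shares one seed between the products of Mir99a, Mir100 and Mir99b, the second is the let-7 seed, and the third is that of miR-125b.
mmu-miR-99a-5p: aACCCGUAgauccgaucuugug
mmu-miR-100-5p: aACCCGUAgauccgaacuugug
mmu-miR-99b-5p: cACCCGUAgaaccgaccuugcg
mmu-let-7c-5p: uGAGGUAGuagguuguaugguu
mmu-let-7a-5p: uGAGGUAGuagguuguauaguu
mmu-miR-125b-5p: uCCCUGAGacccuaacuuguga

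The next set gives the products of other genes with the largest differences or the brightest signal. Their seeds differ from each other, but some of these seeds are also found in further genes, such as that of miR-181b in 6 genes.
mmu-miR-9-5p: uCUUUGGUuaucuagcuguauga
mmu-miR-135a-5p: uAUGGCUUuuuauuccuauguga
mmu-miR-340-5p: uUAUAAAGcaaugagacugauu
mmu-miR-18a-5p: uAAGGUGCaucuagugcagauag
mmu-miR-19a-3p: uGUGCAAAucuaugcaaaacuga
mmu-miR-107-3p: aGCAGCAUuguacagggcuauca
mmu-miR-181b-5p: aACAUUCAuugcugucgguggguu
mmu-miR-692: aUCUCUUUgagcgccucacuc

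For 4 of these genes the whole hairpin is given, since the gene and not the mature RNA is the annotated unit. Here the capitals mark the mature RNA, which takes up only a part of each hairpin, for example bases 5 to 26 of 65 in Mir99a. On GRCm38.p6 the Mir99a hairpin lies at chr16:77598936-77599000 on the + strand, the Mirlet7c-1 hairpin at chr16:77599657-77599750 on the + strand, the Mir9-1 hairpin at chr3:88215598-88215686 on the + strand and the Mir135a-2 hairpin at chr10:92072086-92072185 on the - strand. No source used here names the genome build of the array annotation.
Mir99a hairpin: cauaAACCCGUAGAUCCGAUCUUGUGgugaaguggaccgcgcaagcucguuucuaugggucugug
Mirlet7c-1 hairpin: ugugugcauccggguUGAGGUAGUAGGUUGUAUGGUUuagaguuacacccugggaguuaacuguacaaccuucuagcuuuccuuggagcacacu
Mir9-1 hairpin: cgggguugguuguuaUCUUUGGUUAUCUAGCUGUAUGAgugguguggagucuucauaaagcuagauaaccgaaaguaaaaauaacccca
Mir135a-2 hairpin: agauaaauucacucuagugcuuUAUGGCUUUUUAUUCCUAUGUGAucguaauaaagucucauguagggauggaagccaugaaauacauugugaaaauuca

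The microRNA genes gave a lower signal than the typical gene. The median of their mean log2 signal was 6.93, with quartiles at 6.13 and 8.12 and a range from 5.16 to 12.26, while the median over all genes tested was 8.15. The lower quartile of all genes lay at 6.46, and 94 of the 260 (36.2%) lay under it. A probe set's brightness depends on its own probes, so signals of different genes are not set against each other as amounts. The brightest was the long transcript Mir100hg at 12.31 and 12.22 in the ethanol pools and 12.30 and 12.23 in the control pools. It was followed by Mir692-1, Mir181b-1 (of the miR-181 family, known from lymphocytes), Mir568, Mir505, Mir9-1, Mir99ahg, Mir680-3, Mir598 and Mir680-2, with means from 10.67 to 11.58. Hairpin length and composition went only weakly with brightness. Over the hairpins with a sequence, of 64 to 112 bases and 28.4% to 69.2% G and C, Spearman's rho with the mean signal was 0.13 for G and C content and 0.16 for length, both across genes measured on the same 4 arrays.

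Differences between the ethanol and the control pools were small. The log2 difference (ethanol minus control) ran from -0.43 to 0.37 over the 260 genes, with a median of 0.04 and quartiles at -0.03 and 0.09, while the median over all genes was 0.009. Limma called 0 of the 260 at an adjusted p under 0.05, as it called 0 of all 19938 genes (percent called 0), and no adjusted p was below 0.980. Before adjustment, p was under 0.05 in 14 of the 260 (5.38%, all genes 2.94%), of which 11 (4.23%, all genes 1.36%) were lower and 3 (1.15%, all genes 1.58%) higher in ethanol. A fold of at least 1.2 was also reached by 7 of the 14 (2.69% of the 260, all genes 1.02%). Of these, 6 were lower (2.31%, all genes 0.537%) and 1 was higher (0.385%, all genes 0.481%). Both ethanol pools lay outside the range of both control pools in 66 genes (25.4%, all genes 31.4%), with 39 higher (15.0%, all genes 17.4%) and 27 lower (10.4%, all genes 14.0%). Among genes apart in this way with a fold of at least 1.2, 10 were lower (3.85%, all genes 0.742%) and 2 were higher (0.769%, all genes 0.622%). The 10 include genes that share a locus and are not independent: Mir99a with Mirlet7c-1, Mirlet7a-2 with Mir125b-1, and Mir18 with Mir19a. Among genes with separate groups, Mir135b stood just inside that fold at a log2 difference of -0.28, and Mir142 at 0.26 and Mir1a-2 at -0.25 just outside it. Mir128-2 reached the fold at -0.27 with groups that overlapped. In all, 103 of the 260 stood below 0 (39.6%, all genes 45.8%) and 157 above 0 (60.4%, all genes 54.2%). Within groups the 260 genes also varied more, with a median SD of 0.096 against 0.075 over all genes. The part of this spread in the shares past a fold of 1.2 was not tested.

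**Figure D1:**
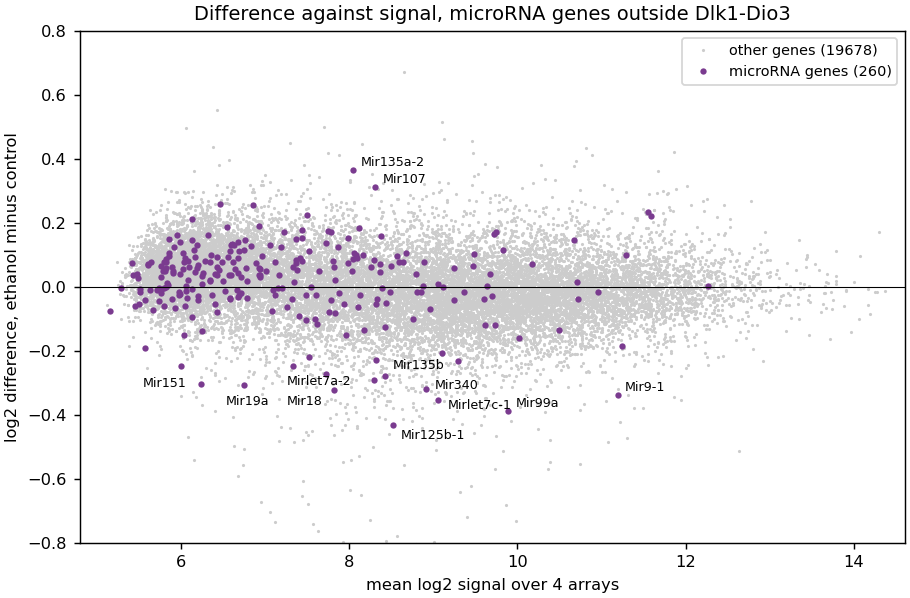
Log2 difference (ethanol minus control, vertical axis) against the mean log2 signal over 4 arrays (horizontal axis), with the 260 microRNA genes as large points and the other 19678 genes as small grey points, of which 18 lie beyond the vertical range. The 12 labelled genes have groups that do not overlap and a fold of at least 1.2, with 2 above 0 and 10 below it.

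The typical microRNA gene was brightest on ethanol 1. This held for 55.8% of the 260, against 40.2% of all genes and 67.6% of the genes under the lower quartile of signal. Among the microRNA genes it held for 50% of the 94 under that quartile and for 59.0% of the 166 at or above it. Ethanol 1 exceeded ethanol 2 by a median of 0.11 over the 260 genes and by 0.03 over all genes. Set against control 1, ethanol 1 had a median difference of 0.09, while ethanol 2 set against control 2 had one of -0.04. Without ethanol 1 the median of the 260 came to -0.03, with 160 of them below 0, where all 4 arrays gave 103 below 0. The side of 0 on which the median stood thus depended on ethanol 1.

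The pools also differed in tissue markers. All 10 neuron markers checked were above the lower quartile, with median log2 levels of 12.43 and 12.40 in the ethanol pools and 12.26 and 12.41 in the control pools. Over 12 skeletal muscle markers the median was 7.35 and 8.09 in ethanol 1 and 2 and 9.73 and 7.18 in control 1 and 2, and 11 of the 12 were at least 2-fold higher in control 1 than in control 2. Summed log2 levels of the 12 were 86.6 and 98.02 in the ethanol pools, against 115 and 86.0 in the control pools. The lowest marker, Mylpf, averaged 6.15 and was the only 1 of the 12 under the lower quartile. Mesenchymal and meningeal markers were also highest in control 1 and next in ethanol 2, with medians of 8.996 and 10.19 in the ethanol pools and 10.54 and 9.003 in the control pools. In bulk RNA, fewer cells of a type and less RNA per cell cannot be told apart.

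The genes with the lowest log2 differences (ethanol minus control) included members of a single family arrangement. In it a miR-99 or miR-100 gene, a let-7 gene and a miR-125 gene are neighbours on a chromosome. The miR-99 family is known to restrain mTOR, let-7 promotes differentiation and is held back in early embryos by Lin28, and miR-125b is known for promoting neuronal differentiation of human cells. On chromosome 16, Mir99a had 9.68 and 9.71 in the ethanol pools, against 10.07 and 10.10 in the control pools. Mirlet7c-1, its nearest neighbour, had 8.93 and 8.84 in the ethanol pools and 9.35 and 9.12 in the control pools. Mir125b-2 had 7.23 and 7.18 in the ethanol pools and 7.35 and 7.55 in the control pools. In all 3 both ethanol pools lay below both control pools, where all genes gave 14%. The locus was drawn up after these values were seen, so its share beside that of all genes is not a test. For Mir99a the gap between the groups was many times the spread within either. The log2 differences were -0.39 ± 0.07 (SE, 2 pools per group), -0.35 ± 0.10 and -0.25 ± 0.09, each with a limma adjusted p of 0.980.

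On chromosome 9 the genes Mir100, Mirlet7a-2 and Mir125b-1 lie inside the long transcript Mir100hg. Mirlet7a-2 had 8.19 and 8.10 in the ethanol pools, against 8.51 and 8.36 in the control pools, a log2 difference of -0.29 ± 0.08 (SE). Mir125b-1 had 7.99 and 8.64 in the ethanol pools and 8.83 and 8.66 in the control pools, a log2 difference of -0.43 ± 0.21. That value came mostly from ethanol 1, and without that pool it was -0.105. Mir100 had 8.79 and 8.64 in the ethanol pools and 8.72 and 8.90 in the control pools, which overlap (log2 difference -0.10 ± 0.10). All 3 genes stood below 0, and 2 of them had separate groups with ethanol lower, where all genes gave 14%. None passed the adjusted test. The locus was drawn up after these values were seen, so its share beside that of all genes is not a test.

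The other genes of these families stood on both sides of 0. At the third such locus, on chromosome 17, Mir99b stood at 0.18 ± 0.08, Mirlet7e at -0.02 ± 0.07 and Mir125a at 0.04 ± 0.07 (log2 difference, SE). Mir99b was higher in both ethanol pools (8.28 and 8.13) than in both control pools (7.98 and 8.07). The cluster of Mirlet7a-1, Mirlet7f-1 and Mirlet7d on chromosome 13 had log2 differences of 0.17, -0.03 and -0.02. Its groups overlapped in all 3 genes, where 31.4% of all genes had groups apart. The median of that cluster was -0.02 on all arrays and 0.04 without ethanol 1. On the X chromosome, inside the ubiquitin ligase gene Huwe1, Mir98 stood at -0.15 ± 0.09 and Mirlet7f-2 at -0.01 ± 0.08. The single genes Mirlet7g and Mirlet7i stood at 0.06 and 0.08. Among all 16 genes of the let-7, miR-99, miR-100 and miR-125 families, 11 were below 0 and 5 above 0. Their median log2 difference was -0.03, against 0.04 for all 260. An unadjusted p under 0.05 was found for 4 of the 16 (25%, all genes 2.94%). Of these 4, 3 are the neighbours at the chromosome 16 locus, which are not independent. The list was chosen with earlier results of these data known, so this share is not a test. The difference between loci was not tested.

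**Figure D2:**
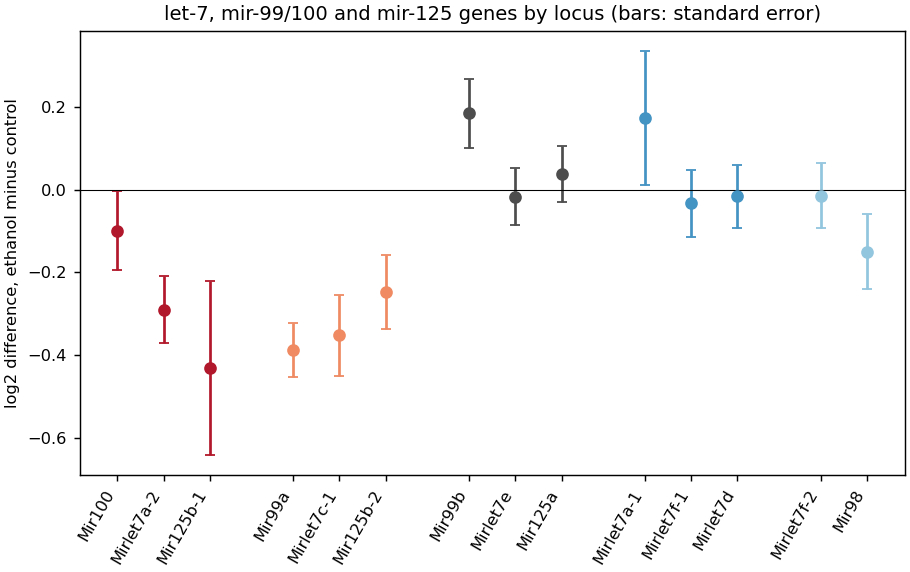
Log2 difference (ethanol minus control, vertical axis) of each gene at 5 loci of the let-7, miR-99, miR-100 and miR-125 families, coloured by locus, with bars for the standard error of the fit (2 pools per group). The genes of the loci on chromosomes 9 and 16 lie from -0.43 to -0.10, and those of the other 3 loci from -0.15 to 0.18.

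The median log2 difference of the Mir99a locus lay between -0.37 and -0.30 with a pool left out, and that of the Mir100 locus between -0.36 and -0.17. The loci were drawn up after these values were seen, and 5 of the 6 genes have separate groups, so the sign of those 5 could not turn when a pool was left out. After the values were quantile normalized again the medians were -0.32 and -0.27. Between control 1 and control 2, where muscle markers differed by a median of 2.91, Mirlet7c-1 differed by 0.23, Mir125b-1 by 0.17 and Mirlet7a-2 by 0.14, all higher in control 1, while Mir99a differed by -0.03, Mir100 by -0.18 and Mir125b-2 by -0.20. The part of the markers' difference in these values was not tested. Of the host transcripts, Mir100hg stood at 0.002 ± 0.07, and the 4 probe sets of Mir99ahg, the transcript upstream of Mir99a, at 0.07, -0.01, -0.14 and -0.11. Genes that carry the same mature sequence could not be told apart where their hairpins are alike, since the probe positions are not in the files.

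Among the remaining genes lower in ethanol, Mir9-1 encodes miR-9, which acts in neural progenitors and times their differentiation. It had 11.19 and 10.85 in the ethanol pools, against 11.33 and 11.38 in the control pools, a log2 difference of -0.34 ± 0.12 (SE). The groups did not overlap, but ethanol 1 lay close to control 1, and without ethanol 2 the value was -0.17. Mir340, in an intron of the ring finger gene Rnf130, had 8.69 and 8.82 in the ethanol pools and 9.18 and 8.96 in the control pools (-0.32 ± 0.10). Mir135b had 8.22 and 8.36 in the ethanol pools and 8.63 and 8.51 in the control pools (-0.28 ± 0.09). Both kept the groups apart on all 4 arrays, with control 1 highest. Mir151 had 6.23 and 5.94 in the ethanol pools and 6.50 and 6.28 in the control pools (-0.30 ± 0.13), a signal in which all but control 1 lay under the lower quartile of all genes.

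Mir18 and Mir19a belong to the miR-17-92 cluster, which sustains proliferation and is known to expand neural progenitors. Mir18 had 7.60 and 7.72 in the ethanol pools, against 8.20 and 7.76 in the control pools (log2 difference -0.32 ± 0.15, SE). Mir19a had 6.51 and 6.69 in the ethanol pools and 7.11 and 6.71 in the control pools (-0.31 ± 0.15). In both, control 2 stood next to ethanol 2 and the difference came mostly from control 1, the pool with the highest muscle markers. Without control 1 both stood at -0.11. Whether the makeup of that pool plays a part was not tested.

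Higher in ethanol with a fold of at least 1.2 stood 2 genes. Mir135a-2, whose product miR-135a acts in Wnt signalling of the mouse midbrain, had 8.36 and 8.10 in the ethanol pools, against 7.82 and 7.91 in the control pools (log2 difference 0.37 ± 0.10, SE). Mir107, in an intron of the pantothenate kinase gene Pank1, had 8.70 and 8.24 in the ethanol pools and 8.09 and 8.22 in the control pools (0.31 ± 0.16). Ethanol 1 was the highest array in both, and for Mir107 ethanol 2 lay beside control 2. Without ethanol 1, Mir135a-2 stood at 0.24 and Mir107 at 0.08. The other copy of miR-135a, Mir135a-1, stood at -0.06 ± 0.08. With smaller differences, Mir692-1 had 11.68 and 11.71 in the ethanol pools against 11.41 and 11.53 in the control pools (0.22 ± 0.07). Mir96, of the sensory epithelium cluster, had 6.24 and 6.25 in the ethanol pools against 6.00 and 6.07 in the control pools (0.21 ± 0.07), under the lower quartile of signal on all arrays.

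**Figure D3:**
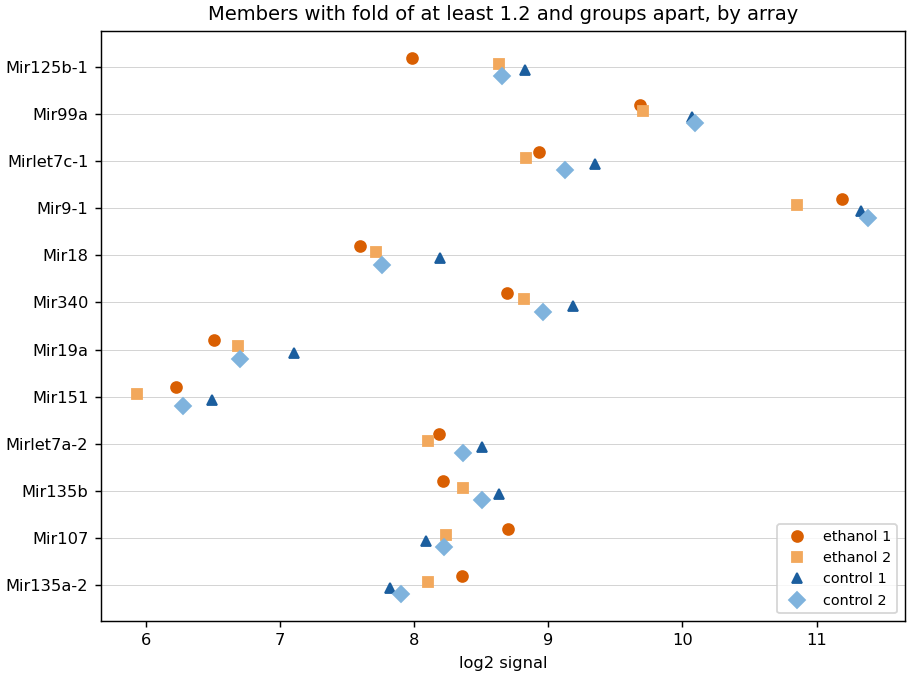
Log2 signal (horizontal axis) on each of the 4 arrays for the 12 microRNA genes with a fold of at least 1.2 and groups that do not overlap, ordered from the lowest difference (top) to the highest (bottom). In Mir99a the 2 ethanol pools at 9.68 and 9.71 lie well below the 2 control pools at 10.07 and 10.10, while in Mir18, Mir19a and Mir107 a single pool stands apart.

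The remaining genes with an unadjusted p under 0.05 were lower in ethanol: Mir1a-2 at -0.25 ± 0.08, Mir701 at -0.23 ± 0.07, Mir297-1 at -0.22 ± 0.07 and Mir547 at -0.19 ± 0.07 (log2 difference, SE). Mir701 and Mir547 were named after their values were seen. Mir1a-2 and Mir547 gave signals under the lower quartile on all arrays.

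The neural microRNA genes stood on both sides of 0. Of 22 genes, 13 were above 0 and 9 below 0, with a median log2 difference of 0.05. The brightest after Mir9-1 were Mir7-1, in the gene of the RNA-binding protein Hnrnpk (-0.16 ± 0.08), and Mir218-1, of the motor neuron microRNA miR-218 in the guidance gene Slit2 (0.06 ± 0.11). Mir138-1 and Mir138-2, of a microRNA that limits dendritic spine growth, stood at 0.08 and 0.10, and Mir7-2 at 0.15. Mir9-3, a second gene of miR-9, stood at -0.03 ± 0.07 with 6.66 and 6.67 in the ethanol pools and 6.65 and 6.74 in the control pools. The neuronal miR-124 genes Mir124a-2 and Mir124a-3 lay at 0.04 ± 0.16 and -0.03 ± 0.09. Mir128-2, of a microRNA abundant in neurons, had 7.78 and 7.40 in the ethanol pools and 7.72 and 8.01 in the control pools (-0.27 ± 0.15) and was added after its value was seen. An unadjusted p under 0.05 was found for Mir9-1, 1 of the 22 (4.55%, all genes 2.94%). Without ethanol 1 the median of the 22 was -0.01, with 11 on each side of 0. The 22 genes include 6 under the lower quartile of signal.

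MicroRNA genes reported in other work to respond to ethanol in fetal mouse neural cells were looked at as a list. They were Mir9-1 and Mir9-3 as given, Mir153 (0.02 ± 0.10), Mir335 in the imprinted gene Mest (-0.06 ± 0.11), and the Hox cluster genes Mir10a (0.06 ± 0.08) and Mir10b (0.03 ± 0.08). Of the 6, 3 were below 0 and 3 above 0, with a median of -0.008. The groups were apart in 1 of the 6, Mir9-1, where all genes gave 31.4%. The median was 0.01 without ethanol 1 and 0.02 without control 1. Mir10a had 6.05 and 6.21 in the ethanol pools and 6.07 and 6.08 in the control pools, under the lower quartile.

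**Figure D4:**
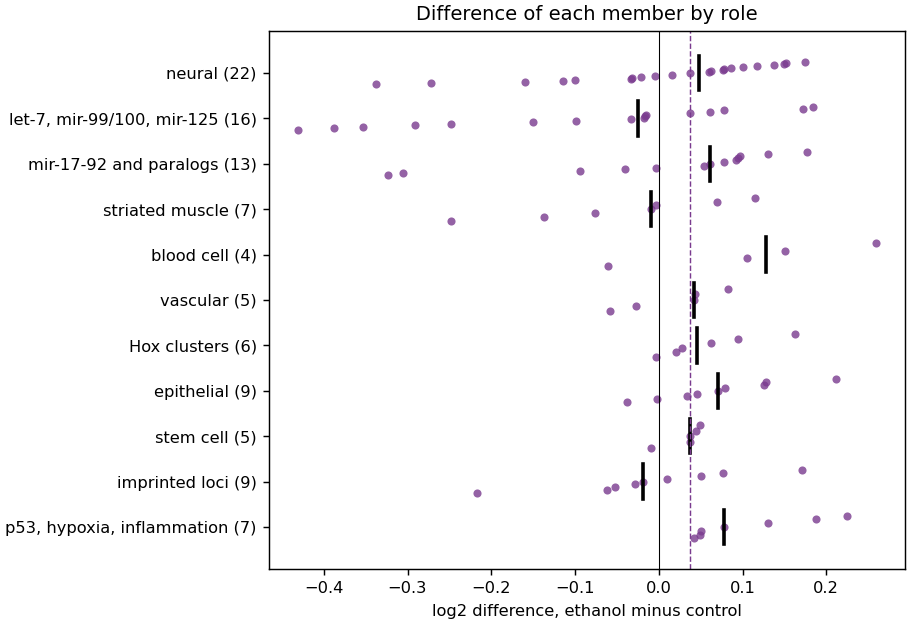
Log2 difference (ethanol minus control, horizontal axis) of each gene of 11 role lists, with the number of genes in brackets, a black bar for the list median and a dashed line for the median of all 260 genes (0.04). List medians run from -0.03 in the let-7, miR-99, miR-100 and miR-125 families to 0.13 in the blood cell genes.

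The 3 paralogous clusters around miR-17-92 held 13 genes with a median of 0.06, 8 above 0 and 5 below 0. Without ethanol 1 the median was -0.01, with 4 above 0 and 9 below 0, and without control 1 it was 0.004. The cluster of Mir25, Mir93 and Mir106b, inside the replication helicase gene Mcm7, stood at 0.18, 0.13 and 0.09. The X-linked cluster of Mir106a, Mir20b, Mir19b-2, Mir92-2 and Mir363 ran from -0.09 to 0.08. In the miR-17-92 cluster itself Mir17, Mir19b-1 and Mir20a stood at 0.09, 0.10 and -0.04 beside the lower Mir18 and Mir19a, and their host Mir17hg stood at 0.08 ± 0.11. The SE of Mir17 was 0.18, and whether neighbours of 1 cluster differed from each other was not tested.

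Across the genome 10 clusters of at least 3 genes, on 1 strand with neighbours under 10 kb apart, held 39 genes. Their median log2 difference was 0.04, and that of the 217 hairpin genes in no cluster was also 0.04. An unadjusted p under 0.05 was found for 1 clustered gene, Mir96 (2.56% of the 39), and for 13 genes in no cluster (5.99% of the 217), where all genes gave 2.94%, and the difference between these shares was not tested. The X-linked cluster of Mir500, Mir501, Mir532, Mir188 and Mir362, inside the chloride transporter gene Clcn5, ran from -0.04 to 0.16. That of Mir450b, Mir450-1, Mir450-2 and Mir542 ran from 0.02 to 0.08, and the stem cell cluster of Mir302a, Mir302b, Mir302c, Mir302d and Mir367 from -0.01 to 0.05. The cluster of Mir23a, Mir27a and Mir24-2 had a median of 0.05. The 39 genes on the X chromosome had a median of 0.02 and the 221 others a median of 0.04.

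Genes of other cell types were looked at by list. All 7 striated muscle microRNA genes lay under the lower quartile, with means from 5.16 to 6.25. Mir206, of skeletal muscle, had 6.24 and 6.13 in the ethanol pools and 6.57 and 6.08 in the control pools (log2 difference -0.14 ± 0.16). It was highest in control 1 like the muscle markers, but higher in ethanol 1 than in ethanol 2, unlike the median of those markers. Mir1a-2 had 5.82 and 5.93 in the ethanol pools and 6.18 and 6.07 in the control pools. Mir1a-1, Mir133a-1, Mir133a-2, Mir208a and Mir499 stood between -0.08 and 0.11. Control 1 was the lowest pool for Mir133a-1 (5.78), Mir208a (5.54) and Mir499 (5.95) and the highest for Mir133a-2 (5.26). In Mir206 the value without control 1 was 0.11, on the other side of 0.

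The 4 blood cell genes had log2 differences of 0.26 (Mir142, of leukocytes), 0.15 and -0.06 (Mir451a and Mir144, of red cells) and 0.10 (Mir150, of lymphocytes). Mir142 had 6.72 and 6.47 in the ethanol pools, against 6.23 and 6.44 in the control pools. Of the 6 erythroid markers measured, with medians of 7.40 and 7.89 in the ethanol pools and 7.97 and 7.18 in the control pools, control 1 was the highest pool, while Mir451a was lowest there. Of the 5 vascular and mesenchymal genes, among them Mir126a of endothelium and Mir143 of smooth muscle, the differences ran from -0.06 to 0.08. The Hox cluster genes had a median of 0.05 over 6 genes and the epithelial genes a median of 0.07 over 9. Without ethanol 1 both medians were -0.01, and that of the vascular genes was -0.004. None of these passed the adjusted test.

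All 7 genes of the p53, hypoxia and inflammation list stood above 0, with a median of 0.08 and a range from 0.04 to 0.22. The p53 targets Mir34b and Mir34c stood at 0.22 ± 0.16 and 0.13 ± 0.12, and Mir34a at 0.05 ± 0.07. Mir155, induced by inflammation, had 6.83 and 6.45 in the ethanol pools, against 6.33 and 6.58 in the control pools (0.19 ± 0.15), and Mir210, induced by hypoxia, stood at 0.04 ± 0.07. Ethanol 1 was the highest array in all 7 genes. Without it 4 were above 0 and 3 below 0, with a median of 0.006, and 0 of the 7 had an unadjusted p under 0.05 on all arrays.

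The list for imprinted loci other than Dlk1-Dio3 was drawn up by gene name and held 9 genes, with a median of -0.02. Whether each of the 9, Mir297-1 among them, lies at an imprinted locus was not checked. That median depended on single pools: it was -0.17 without ethanol 1, with 8 of 9 below 0, 0.13 without ethanol 2, with 8 of 9 above 0, and 0.01 without control 1. Mir669c and Mir297b, of repeated hairpin families, stood at 0.17 ± 0.12 and -0.03 ± 0.12, Mir483, in the growth factor gene Igf2, at 0.01 ± 0.14, and Mir297-1 as given. Genes in no list numbered 157, with 96 above 0 and 61 below 0, a median of 0.03 and a range from -0.32 to 0.37. The repeated families of nearly identical hairpins are uncertain, since a probe set may read several copies.

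A host gene on the same strand held 122 of the 260 genes, and for 94 of them a host was measured (74 hosts). Across these pairs, measured on the same arrays, Spearman's rho between the differences of gene and host was 0.01, and 48 of the 94 pairs had the same sign. Between their mean signals rho was 0.40. The differences of the 260 genes had quartiles at -0.03 and 0.09 and a median SE of 0.086. A rho near 0 among values this small does not show that gene and host moved apart. For the genes with larger values, Rnf130 stood at -0.04 ± 0.07 beside Mir340 at -0.32, Pank1 at -0.08 ± 0.13 beside Mir107 at 0.31, and Lemd1 at -0.04 ± 0.07 beside Mir135b at -0.28. Pairs that share a host, such as the 3 genes in Mir100hg, are not independent.

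**Figure D5:**
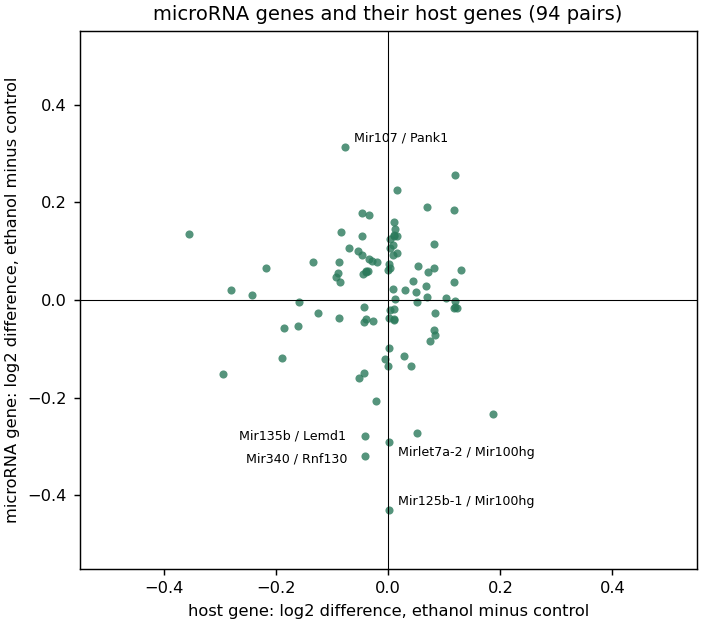
Log2 difference (ethanol minus control) of 94 microRNA genes (vertical axis) against that of the brightest host gene measured (horizontal axis). The points form no line, and the labelled Mir340, Mir107, Mir135b, Mirlet7a-2 and Mir125b-1 lie far from 0 while their hosts lie between -0.08 and 0.002.

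Genes that share a seed stood on both sides of 0 for some seeds and on 1 side for others. The let-7 seed was found in the listed mature sequences of 9 genes, with 6 below 0 and 3 above 0. The let-7 gene Mirlet7a-2, at -0.29, is not among the 9, because the count rests on the mature sequences listed for each gene. Its absence does not show that it lacks the seed. The seed of miR-181b was found in 6 genes, with 3 on each side and values from -0.23 to 0.24, Mir181b-1 itself having 11.85 and 11.49 in the ethanol pools and 11.36 and 11.51 in the control pools. The seed of miR-107 was found in 3 genes, all above 0, with Mir103-1 and Mir103-2 at 0.08 and 0.05. Both genes with the miR-9 seed, Mir9-1 and Mir9-3, stood below 0.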

How the data were processed

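The deposited table holds 35556 probe sets and 4 arrays. Its values are on a log2 scale by their range (4.84 to 15.46): no source used here gives the log base, background correction or normalization, and Partek 6.6 is named per the submitters' processing notes. Trizol RNA was column-cleaned and the cDNA biotin-labelled, per the labels' protocols. The lower quartile of deposited values lay at 6.55 on ethanol 1 and at 6.45 to 6.47 on the other arrays. Arrays carry no read depth, and their number limits the precision (median SE 0.079).

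Of the probe sets, 21789 have 1 symbol. Of these, 21698 matched a GRCm38.p6 gene table, used for names, neighbours and hosts. For 25 of the 260 genes no strand was at hand, so no cluster or host was sought. Ethanol and control were compared with limma 3.58.1 in R 4.3.3 (lmFit and eBayes, two-sided, Benjamini-Hochberg over 19938 genes, 2 residual and 5.65 total degrees of freedom). The fit was tested on simulated data first.

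Members and lists were chosen with earlier results of these data known. Named were the 10 brightest genes, up to 8 per direction with the smallest p among those with separate groups and a fold of at least 1.2, up to 6 per role list (muscle, blood and ethanol lists in full), up to 4 per cluster and hosts of the first 2 sets. The loci of the let-7 families were drawn up after values were seen. Other genes given with values, such as the rest of those families, were also added then. Nothing in the labels makes a replicate number a pair (correlation of deviations between arrays with the same number -0.484). Alternatives were other scalings, averaging a gene's probe sets, leaving out dim genes, other variance models, a block and leaving out each array.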

Additional observations from a re-analysis of the deposited data

How the results depend on the processing

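The absence of calls with 2 pools per group does not show that these genes were unaffected. The number of microRNA genes called was 0 under all 12 alternatives. Over all genes it was 0 except with an array left out (0 to 4, with 4 without control 2). The 7 microRNA genes at an unadjusted p under 0.05 and a fold of 1.2 became 1 in the ordinary test without moderation, which rests on 2 degrees of freedom, and 6 to 25 with an array left out (25 without ethanol 2 and 20 without control 2). Of all genes, 1.02% met that rule, against 0.186% in the ordinary test and 0.712% to 6.34% with an array left out (6.04% without ethanol 2, 6.34% without control 2). Separate groups were found in 25.4% of the microRNA genes (66), and in 31.4% of all genes, and in 23.5% (39 of 166, all genes 32.3%) where dim genes were left out and fewer genes entered. With an array left out, where 1 pool stands against 2, the share was 47.3% to 78.5% (78.5% without ethanol 2, all genes 74.4%; 65.0% without control 2, all genes 71.0%; 60.0% without ethanol 1, all genes 58.4%; 47.3% without control 1, all genes 58.9%). The median log2 difference ranged from -0.027 (without ethanol 1) to 0.081 (without ethanol 2) and was 0.015 after repeated quantile normalization. Repeated quantile normalization, median centring, averaged probe sets and trended variances left the counts within 1.5 times. The 10 genes with separate groups, a fold of at least 1.2 and the smallest p kept their sign in 119 of 119 values, as separate groups imply for each left-out array. Over 65 genes tried singly, the sign turned in 43 of 761 values, in 30 genes.

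With the replicate number as a block, 8 microRNA genes passed the rule of an unadjusted p under 0.05 and a fold of 1.2, as did 0.983% of all genes, and 0 were called. With crossed pairing, chosen after the data were seen, 12 microRNA genes and 1.87% of all genes (373) passed it and 0 were called.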
